A study of Mus musculus with 6 samples.

Results

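The genes described are 8 that encode enzymes of heme synthesis, namely Alas1, Alas2, Alad, Uros, Urod, Cpox, Ppox and Fech. They were taken as every probe set that the platform annotation of the Affymetrix mouse genome array gives to a single one of these symbols. This left 19 probe sets of the 45037 on the array that are not controls, and 8 of 18193 genes. A further enzyme step of the pathway was not analysed here.

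RNA came from 32D cells, an interleukin-3-dependent line from bone marrow of C3H/HeJ mice infected with Friend leukemia virus. The 2 groups of 3 samples were mock-transduced cells, whose titles name the vector MSCVpuro, and cells transduced with the Nup98::Nsd1 fusion, which joins a nuclear pore protein to a histone methyltransferase and occurs in acute myeloid leukaemia. The study was designed to explore by expression profiling what the fusion does in this leukaemia. Each sample was hybridised to its own array. No label says whether the samples were separate cultures, whether the transduced cells were 1 clone, or which vector carried the fusion, so the spread that the p-values measure is that among these samples, and it may be technical.

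Heme is an iron-bearing ring that is made in a chain of steps shared between the mitochondrion and the cytosol. The first enzyme, 5-aminolevulinate synthase, joins glycine to succinyl-CoA in the mitochondrion and sets the rate of the pathway. Intermediate steps run in the cytosol, and the last ones, which oxidise the ring and insert iron, run again in the mitochondrion. Erythroid cells make most of the heme of the body for hemoglobin, while myeloid cells need it for myeloperoxidase, catalase, the phagocyte oxidase and the cytochromes of respiration.

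On the Nup98::Nsd1 arrays Alas1 and Alad, at the start of the pathway, were lower, and Uros, Urod and Ppox, further along it, were higher. Fech, the last enzyme, was lower at 2 of its 3 tested probe sets but not at the brightest, and Cpox passed the test in neither direction. Of the 19 probe sets, 12 were tested, since they were called Present by the MAS5 detection call on all 3 arrays of at least 1 group. They stood for 7 genes. In limma, with Benjamini-Hochberg adjusted p-values over the 20494 probe sets tested, 4 of the 12 were higher (Uros, Ppox and both of Urod) and 5 were lower (both of Alas1, that of Alad and 2 of Fech) at an adjusted p under 0.05. Over all tested probe sets 42.3% were called higher and 27.6% lower, 69.9% in all, so that the number of calls among the heme genes was near that of the array as a whole. The groups of arrays did not overlap in 10 of the 12, against 73.2% of all tested probe sets. By the brightest tested probe set of each gene, the median log2 fold change was 0.18 for the 7 genes and 0.12 for all 9641 tested genes. Counted so, 3 of the 7 genes were higher and 2 lower, against 72.3% of all genes called in either direction.

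**Figure D1:**
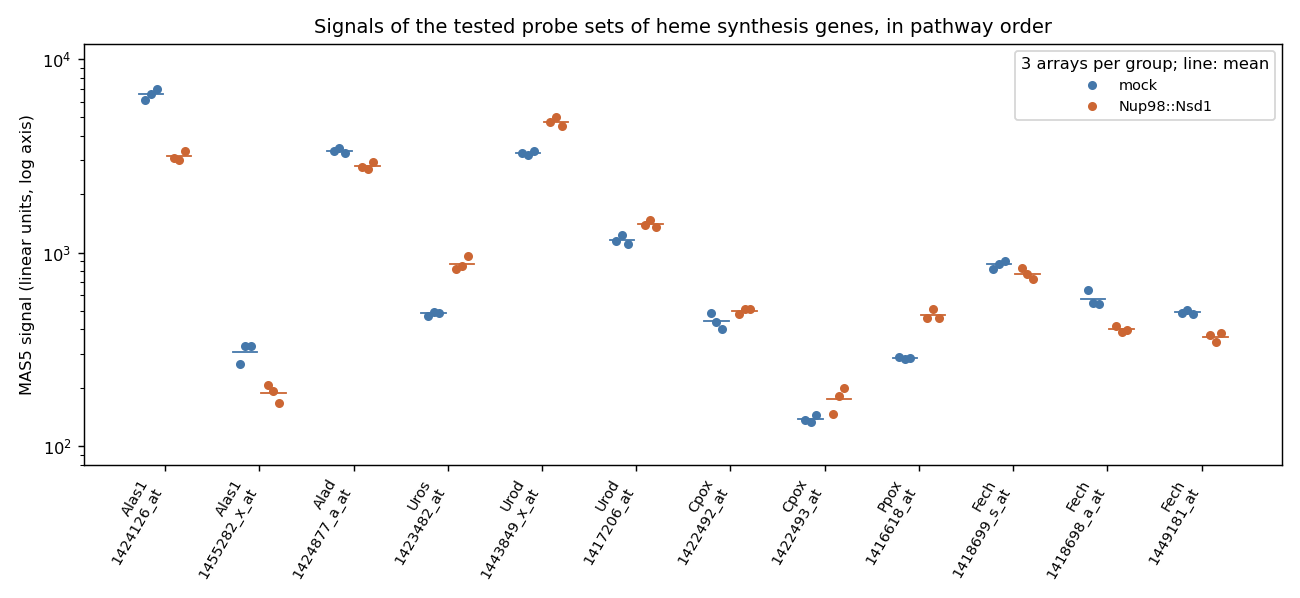
MAS5 signal (linear units on a log axis) of the 12 tested probe sets on each of the 6 arrays, in pathway order; points are arrays and lines are group means of 3 arrays. The Nup98::Nsd1 arrays lie below the mock arrays at both Alas1 probe sets and above them at Uros, Urod and Ppox.

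Facts of the whole array bear on these values. Tested probe sets had a median log2 fold change of 0.15 as deposited, which was -0.0089 after quantile normalization, -0.018 with median centring and -0.21 with scaling to the hybridization controls, so each value given here includes that shift. The share of calls that were higher was 60.5% as deposited and 49.7%, 47.1% and 32.3% under these scalings. Probes at the 3' end of Actb were brighter relative to those at its 5' end in the Nup98::Nsd1 group, with a ratio of 1.47 ± 0.026 against 1.18 ± 0.030 in the mock group (mean ± SD, n = 3 each), and the same ratio for Gapdh was 0.816 ± 0.024 against 0.760 ± 0.016. Such ratios reflect how intact and how fully labelled the RNA was. The part of these ratios in the changes of the heme genes was not tested.

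Alas1, the 5-aminolevulinate synthase of all tissues and the rate-limiting enzyme of the pathway outside erythroid cells, was 2.10-fold lower in Nup98::Nsd1 cells. Its brighter probe set (1424126_at) gave signals of 6158, 6632 and 7054 on the mock arrays and 3069, 3022 and 3365 on the Nup98::Nsd1 arrays. Every Nup98::Nsd1 array was thus well under every mock array. The log2 fold change was -1.07 (SE 0.058, 95% interval -1.20 to -0.94, limma adjusted p = 2.36e-08), and 2.49% of tested probe sets had a lower one. Among all tested probe sets 3.13% were called lower and at least 2-fold changed. The dimmer probe set (1455282_x_at), whose suffix marks probes that can also match other transcripts, gave 265, 327 and 328 against 206, 192 and 166 (log2 fold change -0.71, SE 0.14, adjusted p = 0.000648). Under all scalings tried, the log2 fold change of the brighter lay between -1.43, with hybridization control scaling, and -0.93, after quantile normalization.

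Alas2, the synthase of erythroid cells, was not detected. Its only probe set (1451675_a_at) gave signals of 3.94, 5.65 and 16.5 on the mock and 3.66, 6.23 and 2.82 on the Nup98::Nsd1 arrays, each called Absent, and was not tested. The detectable signal for the first step of the pathway in both groups therefore came from Alas1.

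The sequences before the annotated starts of these genes are shown because the pair that performs the same step differed in whether it was detected. Windows were taken from RefSeq's promoter table (GRCm38.p6) for 7 of the 8 genes, and none was taken for Fech. The 250 bases before each start were searched on both strands for 5 motifs, which are in capitals and do not overlap each other in the windows printed. The NRF1 motif was GCGCA and GCGC parted by any base, and is known to be bound by NRF1, a regulator of genes for mitochondrial proteins. The GATA motif, bound by GATA factors, was AGATAA or AGATAG or TGATAA or TGATAG. The others were the E-box CACGTG, the GC box GGGCGG and CCAAT. Of 32851 windows of this length in the table, 3.74% held the NRF1 motif, 26.5% a GATA motif, 6.02% the E-box, 32.7% a GC box and 33.8% CCAAT. Alas1 has 2 windows. The one shown (chr9:106247731-106247980, minus strand) held 2 NRF1 matches, beginning 224 and 195 bases before the start. The other (chr9:106247955-106248204), which overlaps it, held 1 GC box and no NRF1 match. Both NRF1 matches lie beyond the end of that other window, so they are not before its annotated start. That of Alas2 (chrX:150547167-150547416, plus strand) held a GATA motif 86 bases and a GC box 26 bases before the start. These matches are descriptions of letters, and binding was not measured.
Alas1: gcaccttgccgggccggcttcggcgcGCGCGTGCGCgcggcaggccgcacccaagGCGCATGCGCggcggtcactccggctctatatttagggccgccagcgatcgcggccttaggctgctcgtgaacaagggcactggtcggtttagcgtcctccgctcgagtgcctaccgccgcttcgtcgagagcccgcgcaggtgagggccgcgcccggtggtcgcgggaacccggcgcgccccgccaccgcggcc
Alas2: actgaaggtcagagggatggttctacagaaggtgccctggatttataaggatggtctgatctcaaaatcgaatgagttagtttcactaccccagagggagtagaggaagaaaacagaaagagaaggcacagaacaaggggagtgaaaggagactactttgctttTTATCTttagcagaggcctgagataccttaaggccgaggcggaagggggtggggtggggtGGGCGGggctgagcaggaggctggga

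Alad, which condenses 2 molecules of aminolevulinate to porphobilinogen in the cytosol, fell slightly. Its brighter probe set (1424877_a_at) gave signals of 3370, 3477 and 3263 on the mock arrays and 2783, 2703 and 2942 on the Nup98::Nsd1 arrays, without overlap. The log2 fold change was -0.26 (SE 0.048, 95% interval -0.37 to -0.16, limma adjusted p = 0.000406), or 1.20-fold lower. It remained below 0 and past the threshold under each scaling, from -0.63 with hybridization control scaling to -0.16 after quantile normalization.

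Uros, uroporphyrinogen III synthase, which closes the ring of the heme precursor, rose most of the 7 genes. Its signals were 469, 495 and 488 on the mock arrays and 821, 852 and 956 on the Nup98::Nsd1 arrays at the probe set that was tested (1423482_at). The lowest Nup98::Nsd1 array lay far above the highest mock array. The log2 fold change was 0.85 (SE 0.077, 95% interval 0.68 to 1.02, limma adjusted p = 1.53e-06), or 1.81-fold. It was 0.49 with hybridization control scaling, the smallest value among the scalings, and still past the threshold.

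Urod, which removes carboxyl groups from the closed ring in the cytosol, rose at both of its probe sets as deposited. The brighter (1443849_x_at), whose probes can match other transcripts as well, gave 3292, 3215 and 3367 on the mock and 4742, 5002 and 4519 on the Nup98::Nsd1 arrays. The dimmer (1417206_at) gave 1153, 1227 and 1106 against 1390, 1473 and 1356. Neither probe set had overlapping groups. The log2 fold changes were 0.53 (SE 0.047, limma adjusted p = 1.28e-06) and 0.28 (SE 0.060, adjusted p = 0.00144), or 1.44-fold and 1.21-fold. The brighter remained higher under each scaling, down to 0.16 with hybridization control scaling (adjusted p = 0.0219). The dimmer stood at 0.11 with median centring (adjusted p = 0.125) and at -0.089 with hybridization control scaling (adjusted p = 0.328), so that its call depended on the scaling.

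Cpox, coproporphyrinogen oxidase, which acts on the ring at the mitochondrial membrane, did not pass the threshold at either tested probe set. The brighter (1422492_at) gave 488, 436 and 404 on the mock and 480, 509 and 512 on the Nup98::Nsd1 arrays, so the groups overlapped. Its log2 fold change was 0.18, with a 95% interval of -0.020 to 0.38 (limma adjusted p = 0.0982). The other (1422493_at) gave 135, 133 and 144 against 147, 181 and 198, without overlap, and a log2 fold change of 0.34 with an interval of -0.010 to 0.69 (adjusted p = 0.0765). The brighter passed without mock replicate 1 (0.25, adjusted p = 0.0386) and the other without Nup98::Nsd1 replicate 1 (0.46, adjusted p = 0.0292). Both were below 0 after quantile normalization and with hybridization control scaling, where neither passed. Another probe set (1440747_at) was called Present on 2 Nup98::Nsd1 arrays and no mock array, at 63.2, 62.9 and 35.5 against 38.8, 41.4 and 25.5, and was not tested.

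Ppox, which oxidises protoporphyrinogen to protoporphyrin in the mitochondrion, rose. The tested probe set (1416618_at) gave 289, 281 and 285 on the mock arrays and 457, 509 and 457 on the Nup98::Nsd1 arrays. The mock arrays lay close together and all under the Nup98::Nsd1 arrays. The log2 fold change was 0.73 (SE 0.093, 95% interval 0.53 to 0.93, limma adjusted p = 2.49e-05), or 1.66-fold, and 0.37 with hybridization control scaling (adjusted p = 0.00865).

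Because Uros, Urod and Ppox were higher together, the 250 bases before their annotated starts are given with the same motifs in capitals. The Uros window shown (chr7:133709296-133709545, minus strand) begins with an E-box and held an NRF1 match 47 bases and a GC box 32 bases before the start, and a second Uros window held 2 GATA motifs. The Urod window (chr4:116994414-116994663, minus strand) held CCAAT 171 bases, an E-box 49 bases and a GC box 28 bases before the start. That of Ppox (chr1:171281187-171281436, minus strand) held 4 CCAAT matches, 114, 98, 74 and 45 bases before the start, and none of the other motifs. None of the 5 motifs was found in all of these 3 windows. The NRF1 motif was found in the window shown for Alas1, which was lower, as well as in that shown for Uros, which was higher. It was not found in the other window of either gene.
Uros: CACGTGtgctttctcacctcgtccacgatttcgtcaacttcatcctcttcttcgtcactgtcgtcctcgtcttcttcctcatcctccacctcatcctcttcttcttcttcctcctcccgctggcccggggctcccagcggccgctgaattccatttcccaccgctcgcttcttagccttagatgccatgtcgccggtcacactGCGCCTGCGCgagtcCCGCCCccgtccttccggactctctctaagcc
Urod: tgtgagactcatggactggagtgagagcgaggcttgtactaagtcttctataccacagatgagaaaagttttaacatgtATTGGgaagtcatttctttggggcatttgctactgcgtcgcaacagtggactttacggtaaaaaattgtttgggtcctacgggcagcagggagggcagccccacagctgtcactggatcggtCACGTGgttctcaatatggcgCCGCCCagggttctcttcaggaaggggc
Ppox: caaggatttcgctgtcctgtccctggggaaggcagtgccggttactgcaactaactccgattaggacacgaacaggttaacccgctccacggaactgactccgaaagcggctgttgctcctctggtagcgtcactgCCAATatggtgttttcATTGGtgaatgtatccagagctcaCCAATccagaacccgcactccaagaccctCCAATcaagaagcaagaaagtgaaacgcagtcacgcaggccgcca

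Fech, ferrochelatase, which inserts iron into protoporphyrin and itself carries an iron-sulfur cluster, fell at 2 of its 3 tested probe sets. One of these (1418698_a_at) gave 637, 549 and 539 on the mock and 415, 390 and 398 on the Nup98::Nsd1 arrays. The other (1449181_at) gave 484, 502 and 482 against 372, 344 and 384. Neither had overlapping groups, and the log2 fold changes were -0.52 (SE 0.090, limma adjusted p = 0.000305) and -0.42 (SE 0.086, adjusted p = 0.00106), or 1.43-fold and 1.34-fold lower. The brightest probe set (1418699_s_at), whose suffix marks probes shared between transcripts, gave 826, 872 and 904 against 829, 773 and 729, with overlap. Its log2 fold change of -0.16 (95% interval -0.31 to -0.0048) did not pass as deposited (adjusted p = 0.062). It passed with median centring (-0.33), after quantile normalization (-0.28), with hybridization control scaling (-0.52) and without Nup98::Nsd1 replicate 1 (-0.21, adjusted p = 0.0335).

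**Figure D2:**
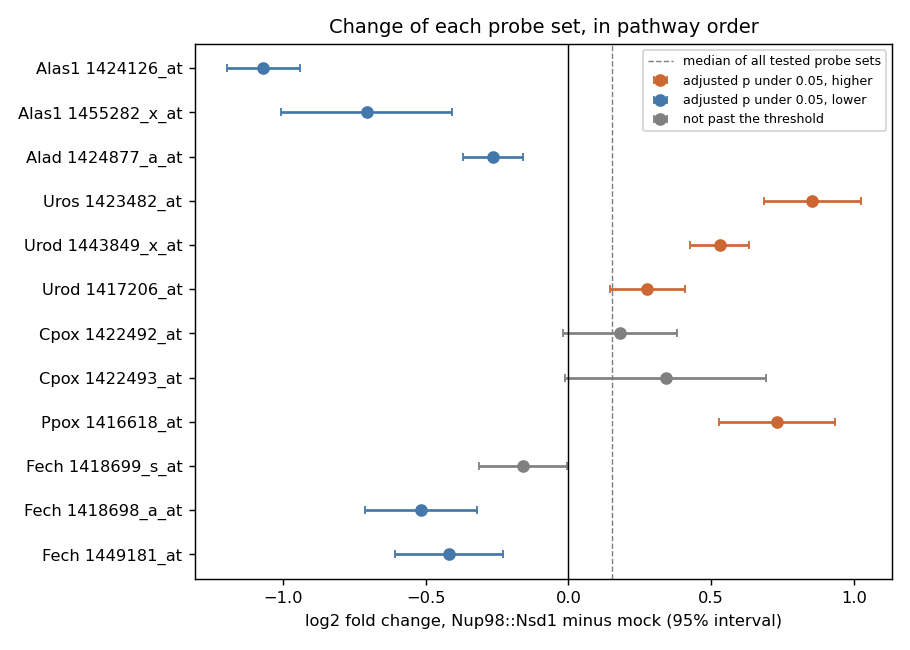
Log2 fold change (Nup98::Nsd1 minus mock, 3 arrays each) of the 12 tested probe sets with 95% intervals from limma, in pathway order; the dashed line is the median of all tested probe sets, 0.15. Both Alas1 probe sets lie to the left of 0, Uros, Urod and Ppox to the right, and Fech to the left.

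The 7 probe sets that were not tested were dim. Besides that of Alas2, they belonged to Alad (1457306_at), Uros (1440535_at), Cpox (1440747_at), Ppox (1448065_at and 1441862_at) and Fech (1427696_at). Their signals reached at most 89.4, on a Nup98::Nsd1 array at Fech, and 5 of the 7 were called Absent on all 6 arrays. The exceptions were that of Cpox and 1441862_at of Ppox, which was Present on 1 Nup98::Nsd1 array and Marginal on 1 mock array. Each gene with such a probe set, apart from Alas2, had another that was Present on all 6 arrays.

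Centring on a percentile or a median and scaling to the hybridization controls shift each array by a constant, so the difference between any pair of probe sets is the same as in the deposited values. Quantile normalization does not, and it changed the order of some enzymes: Ppox, above the brighter Urod probe set as deposited (0.73 against 0.53), was below it (0.50 against 0.66), and the dimmer Alas1 probe set passed the brighter (-1.03 against -0.93). Of the 12 heme probe sets, 4 were higher and 5 lower with 75th percentile centring, where 43.2% of all tested probe sets were higher and 26.9% lower (70.1% called). After quantile normalization 4 were higher and 6 lower, against 33.3% and 33.8% of all (67.1% called). With median centring 3 were higher and 6 lower, against 32.4% and 36.5% of all (68.9% called). With hybridization control scaling 3 were higher and 6 lower, against 22.3% and 46.8% of all (69.1% called). In each of these settings Uros, Ppox and the brighter Urod probe set were called higher and Alas1, Alad and 2 Fech probe sets lower.

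**Figure D3:**
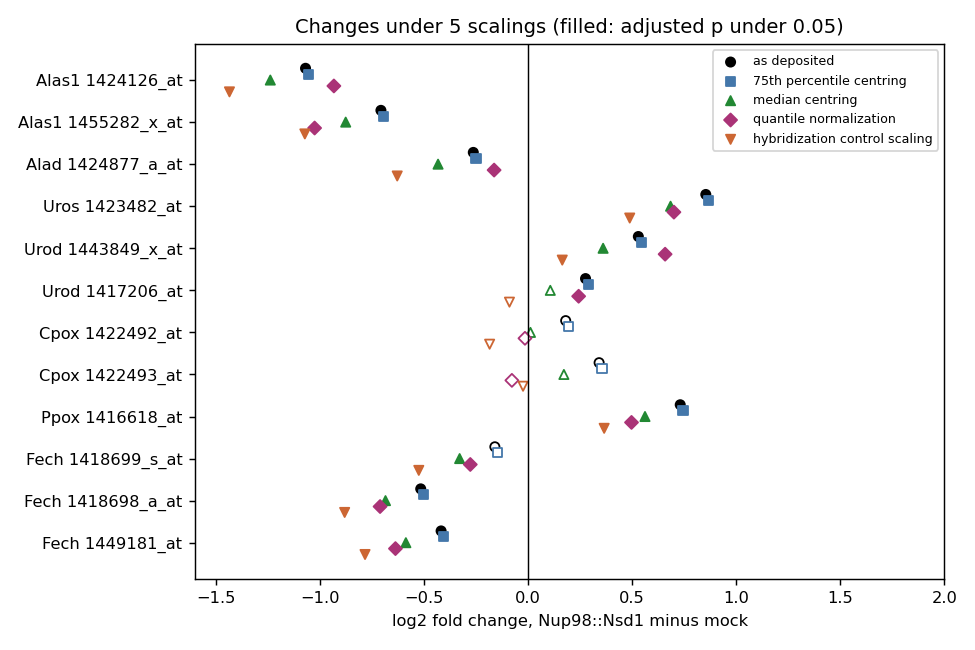
Log2 fold change of the 12 tested probe sets under 5 scalings of the arrays; filled symbols passed an adjusted p of 0.05 in limma. Alas1, Alad, Uros, Ppox, the brighter Urod and 2 Fech probe sets keep their direction and pass in each, and Cpox passes in none.

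To compare the enzymes with each other, the log2 ratio of their brightest tested probe sets was taken within each array, for 21 pairs of genes, a comparison chosen after the data were seen. A level of one probe set cannot be set against that of another, but a change of their ratio shows that they did not change alike. The ratio of Uros to Alas1 was 3.79-fold higher on the Nup98::Nsd1 arrays, a change of 1.92 on the log2 scale, with SDs between arrays of 0.073 in mock and 0.047 in Nup98::Nsd1 cells. The ratios of Ppox, Urod and Cpox to Alas1 were 3.48-fold, 3.03-fold and 2.38-fold higher, and those of Fech and Alad 1.88-fold and 1.75-fold higher. For each of these 6 ratios the groups did not overlap, and the two-sided exact permutation p was 0.1, and no smaller p is possible with 3 arrays in each group (0.117 after Benjamini-Hochberg adjustment over the 21 pairs). By these brightest probe sets, Alas1 was therefore lower relative to each of the other 6 enzymes on every array of the Nup98::Nsd1 group. Ratios between dimmer probe sets were not taken. The dimmer Alas1 probe set changed by -0.71, nearer to the dimmer Fech probe sets at -0.52 and -0.42.

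As deposited, the ratio of Ppox to Uros changed by -0.12 on the log2 scale, and that of Fech to Alad by 0.10, with overlapping groups in both (exact permutation p = 0.3, adjusted p = 0.3). The latter rests on the brightest Fech probe set. The other Fech probe sets, at -0.52 and -0.42, lay below Alad at -0.26, and after quantile normalization the brightest one did too (-0.28 against -0.16). The ratio of Fech to Ppox, the enzymes of the last steps, fell by 0.89 on the log2 scale without overlap (exact permutation p = 0.1, adjusted p = 0.117).

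**Figure D4:**
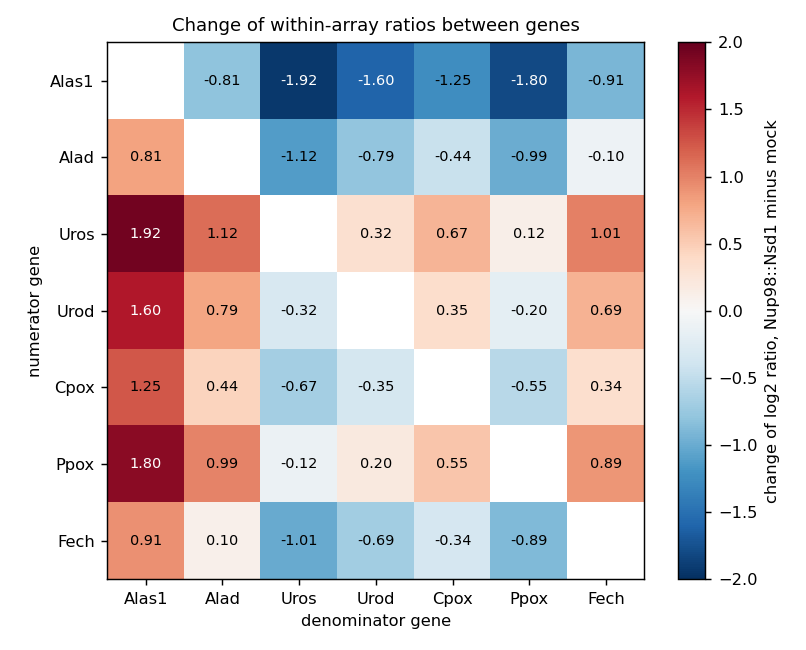
Change of the within-array log2 ratio between the brightest tested probe sets of 7 enzymes, Nup98::Nsd1 minus mock; rows are the numerator and columns the denominator of each ratio. The row of Alas1 is below 0 throughout, down to -1.92 against Uros.

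By the distance between the 6 log2 signals, each taken relative to its mock mean, the genes most like Alas1 among 9640 others were Nop10, a component of the H/ACA ribonucleoprotein (distance 0.057, log2 fold change -1.08), Hsph1, a heat shock chaperone (0.062 and -1.06), and Fen1, a flap endonuclease of DNA replication (0.10 and -1.05). The likeness is a description over 6 arrays that share 2 group means.

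Genes around the pathway were described by lists and compared with all 9641 tested genes, of which 42.9% were called higher and 29.5% lower, with a median log2 fold change of 0.12. The list of glycine and succinyl-CoA supply held 8 tested genes for enzymes that make or use these substrates of the first step. Of these, 7 fell and 1 rose, with a median of -0.45. The amount of either substrate was not measured. Dlst, 1 of the 7, was called lower at its brightest probe set (-0.19). Its other tested probe sets stood at 0.04, 0.15 and 0.19 and were not called. Suclg2 and Sucla2, subunits of succinyl-CoA synthetase, were 1.77-fold and 1.49-fold lower (limma adjusted p = 2.03e-08 and 2.26e-07). Shmt1, the cytosolic enzyme that makes glycine from serine, was 1.59-fold lower, while Shmt2, its mitochondrial counterpart, rose 1.66-fold from 4789 ± 145 to 7949 ± 226 (adjusted p = 3.46e-08). At their brightest probe sets, the directions of these 4 genes were the same under each scaling. The brightest of Shmt2 has a suffix that marks probes that can also match other transcripts. As deposited, the other tested probe sets of Shmt2 were called higher by less, at log2 fold changes of 0.16 and 0.37. Those of Shmt1 and Suclg2 were all called lower. Whether these other probe sets keep their direction under the other scalings was not tested.

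Of 14 tested genes for transport and cofactors of the pathway, 6 fell and 3 rose, with a median log2 fold change of -0.074. Glrx5, a glutaredoxin of iron-sulfur cluster assembly, fell from 6887 ± 126 to 3300 ± 144 (mean ± SD, n = 3 each), or 2.09-fold (limma adjusted p = 3.03e-09). Tmem14c, which in the mouse brings the porphyrinogen to the mitochondrial matrix, was 1.90-fold lower (5184 ± 244 to 2735 ± 116, adjusted p = 2.16e-08), and Tspo, a porphyrin-binding protein of the outer membrane, 1.35-fold lower. The mitochondrial iron importer gene Slc25a28, mitoferrin 2, rose 1.45-fold as deposited and stood at a log2 fold change of 0.17 with hybridization control scaling, not past the threshold. With that scaling the list had 10 lower and 0 higher of 14, and with median centring 9 lower and 3 higher. Clpx, a mitochondrial chaperone that acts on aminolevulinate synthase, did not pass at its brightest probe set (-0.063, adjusted p = 0.381), and Abcb10, a transporter of the inner membrane, stood at 0.056 (adjusted p = 0.476); each had another tested probe set that was called, at 0.93 and -0.41.

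Of 7 tested genes of heme degradation, export and uptake, 4 fell and 2 rose, with a median of -0.37. Under hybridization control scaling, and likewise under median centring, 5 were lower and 1 higher, and with no filter on detection, which adds 3 genes, 4 were lower and 2 higher with a median of 0.038. Blvrb, a biliverdin reductase, rose 2.52-fold, from 817 ± 55.3 to 2054 ± 74.0 (limma adjusted p = 7.42e-09). Flvcr1, known as a heme exporter, was 1.62-fold lower, Slc48a1, which moves heme out of the lysosome, 1.29-fold lower, and Hmox1, the inducible heme oxygenase, 1.33-fold lower (881 ± 10.6 to 665 ± 14.8, adjusted p = 0.000106). All 3 tested genes of heme A and heme C formation fell as deposited, with a median of -0.19. Cox10, which begins heme A, was 1.44-fold lower. Cox15 and Hccs, at -0.19 and -0.12 on the log2 scale at their brightest probe sets, were lost under some settings: Hccs stood at 0.01 after quantile normalization, and Cox15 and Hccs did not pass without an intensity trend. Cox15 also did not pass without mock replicate 1 or Nup98::Nsd1 replicate 3, and Hccs without mock replicate 2. The other tested probe sets, 3 of Cox15 and 1 of Hccs, were all called lower, while the other 2 of Cox10 were not called.

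Of 12 tested genes of heme proteins and subunits of heme-bearing complexes, 9 fell and 2 rose, with a median of -0.39. Mpo, myeloperoxidase, fell from 19095 ± 841 to 5183 ± 35.6, or 3.68-fold, and Epx, eosinophil peroxidase, 4.65-fold (limma adjusted p = 5.29e-11 and 3.55e-10). Cyb5b, a cytochrome b5 of the outer mitochondrial membrane, was 3.45-fold lower at its brightest probe set (4149 ± 251 to 1203 ± 72.8) and lower at 2 others, by 0.48 and 0.97 on the log2 scale. Cycs, cytochrome c, was 1.74-fold lower (adjusted p = 1.94e-08). The 2 that rose were Tbxas1 (2.71-fold, adjusted p = 9.30e-08) and Cyba (1.32-fold, adjusted p = 1.43e-06). Cat, catalase, did not pass at its brightest probe set (-0.16, adjusted p = 0.0922), while another was called at -0.37. Cybb was Present on no array at its brightest probe set and was not tested.

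Of 8 tested genes of heme sensing and iron regulation, 6 rose and 2 fell, with a median log2 fold change of 0.50. Nr1d2, a nuclear receptor that binds heme, rose 2.06-fold from 443 ± 9.32 to 913 ± 32.0 (limma adjusted p = 1.08e-07). Mafk and Mafg, small partners of the heme-responsive repressor Bach1, rose 1.77-fold and 1.51-fold (adjusted p = 3.11e-06 and 1.97e-06). Nfe2l2, an activator at the same DNA elements, rose 1.33-fold as deposited at its brightest probe set. That probe set stood at 0.05 with hybridization control scaling, not past the threshold. With that scaling 4 genes of the list were higher and 2 lower. As deposited, other tested probe sets of Nfe2l2 and Mafg were called higher at log2 fold changes of 1.99 and 1.43. Bach2, 1 of the 6 that rose, was Present on 1 mock array, and among the 7 genes Present on all 6 arrays 5 rose and 2 fell, with a median of 0.41. Of 9 tested erythroid transcription factors, 5 rose and 3 fell, with a median of 0.23, which was -0.14 with hybridization control scaling. Klf1, 1 of the 3 that fell, was Present on 1 Nup98::Nsd1 array, and among the 8 genes Present on all 6 arrays 5 rose and 2 fell, with a median of 0.46. Nfe2, Gfi1b and Tal1 rose 2.05-fold, 1.85-fold and 1.63-fold, and Lmo2, a partner of Tal1, was 1.46-fold lower. The direction of these 4 held under each scaling. Gata1, another of the 3 that fell, was 1.51-fold lower as deposited (3352 ± 46.3 to 2231 ± 194, limma adjusted p = 3.88e-06).

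**Figure D5:**
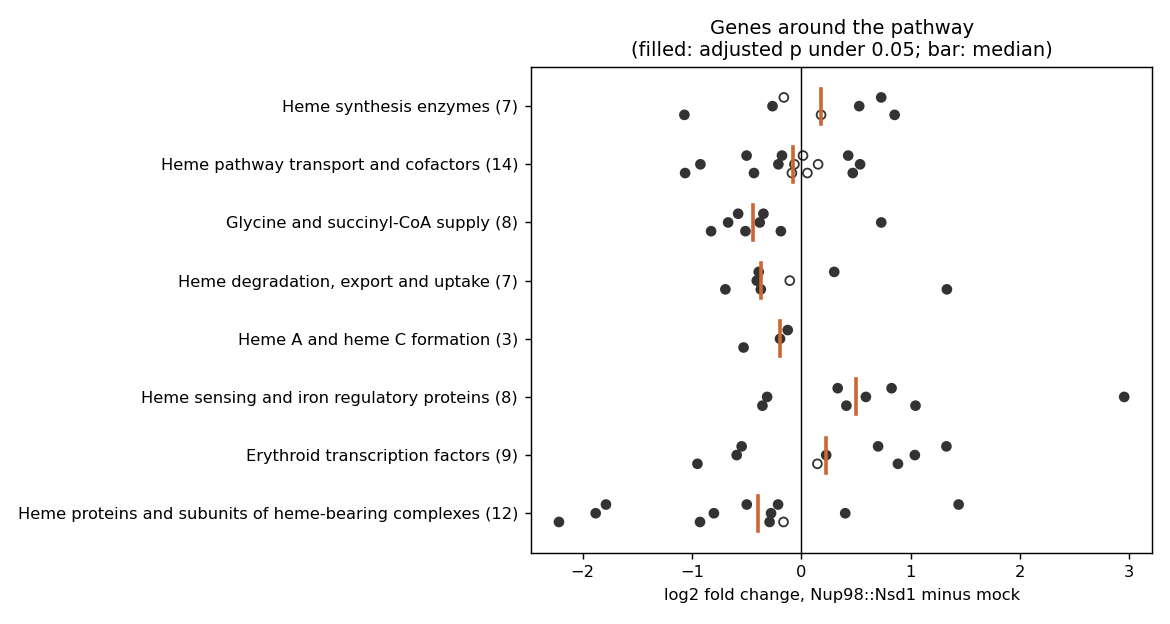
Log2 fold change (Nup98::Nsd1 minus mock) of each tested gene at its brightest tested probe set, for the heme synthesis enzymes and 7 lists of genes around the pathway, with the number of tested genes in brackets; filled points passed an adjusted p of 0.05 and bars are medians. The list of glycine and succinyl-CoA supply lies left of 0 except Shmt2.

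The absence of Alas2 was set beside markers of erythroid and other cells. Of 13 erythroid markers, 7 had a probe set and 4 were tested, namely Hba-a2, Epor, Epb42 and Klf1, while Hba-a1, Hbb-b2 and the anion exchanger gene Slc4a1 were Present on no array. The summed signal of the 7 was 1061 to 1145 on the mock arrays and 675 to 753 on the Nup98::Nsd1 arrays. Of the 4 tested, Klf1, Epb42 and Hba-a2, an alpha globin gene whose probes may also read its close duplicate, fell (log2 fold changes -0.95, -1.34 and -0.84; limma adjusted p = 0.000133, 0.000163 and 4.51e-05), and Epor, the erythropoietin receptor, stood at 0.10 (adjusted p = 0.532). Klf1 was Present on 3 mock arrays but on 1 Nup98::Nsd1 array, so it was tested only through the mock group and its level in the other group was mostly not above background. Among the 3 markers Present on all 6 arrays, 2 fell. In RNA of a whole culture, fewer cells of a type and less RNA per cell cannot be told apart. Neutrophil and primary granule markers, which fit the myeloid label of the line, summed to 59673 to 63167 on mock and 43933 to 44641 on Nup98::Nsd1 arrays, with 9 of 11 measured markers tested and Ltf and Camp Present on no array. The brightest markers carry such a sum: 6 of the 9 fell, among them Mpo and Ms4a3, while Lcn2, a secondary granule protein, rose 7.39-fold (2004 ± 21.1 to 14812 ± 297, limma adjusted p = 1.73e-12), S100a8 rose 1.11-fold (adjusted p = 0.0329) and Ctsg stood at 0.050 on the log2 scale (adjusted p = 0.258). Elane, 1 of the 6 that fell, was Present on no Nup98::Nsd1 array and was tested only through the mock group. Among the 8 of these markers Present on all 6 arrays, 5 fell and 2 rose. Of the 9 tested, 1 was higher and 8 lower with hybridization control scaling, and 3 were higher and 5 lower after quantile normalization. The 6 measured megakaryocyte markers summed to 3605 to 3846 and 10116 to 10447, the 8 of monocytes and macrophages to 6014 to 6342 and 8354 to 8555, and the 7 of mast cells, basophils and eosinophils to 11339 to 11748 and 4924 to 5018. All 4 tested megakaryocyte markers rose. Itgb3, 1 of them, was Present on 2 mock arrays, so it was tested only through the Nup98::Nsd1 group. The 3 Present on all 6 arrays all rose. Of the monocyte markers 3 of 5 tested rose and 1 fell as deposited, while 2 were higher and 3 lower with hybridization control scaling. Among mast cell and eosinophil markers 3 of 5 tested fell while Cpa3 (2.03-fold) and Mcpt8 (1.20-fold), mast cell and basophil proteases, rose. With hybridization control scaling, and likewise with median centring, 1 of these markers was higher and 3 lower. For comparison, 42.9% of all tested genes were called higher and 29.5% lower. Of 6 measured lymphoid and 5 measured fibroblast markers 0 were detected well enough to be tested. The part of these markers in the changes of the heme genes was not tested.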

How the data were processed

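RNA of 6 samples was measured on 6 arrays. The submitters' processing notes name MAS5. The authors deposited 1 intensity per probe set and array, linear in scale, per the file headers. The authors also deposited a detection p-value and a detection call for each probe set. The version and scaling target of MAS5 are not known here. The values of the series matrix equal those of the array files (largest relative difference 5e-06).

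The 64 controls were left out. Signals under 1 (3183) were set to 1 before log2 was taken, and the arrays were not rescaled. Probe sets called Present throughout either group were tested with limma 3.58.1 in R 4.3.3 (linear model, empirical Bayes with an intensity trend, Benjamini-Hochberg over 20494 probe sets, threshold 0.05). The call was checked on simulated data with few changed probe sets and no shift of the whole array. That check therefore does not cover data in which most probe sets are called and the shift depends on scaling. The number of arrays limits the precision. Symbols follow the platform annotation, updated through a RefSeq table (GRCm38.p6); 34945 probe sets had 1 symbol, and the others were left unnamed. A gene of a list was represented by its brightest tested probe set.

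The members and lists were chosen with earlier results of these data known. Alox5ap, listed by error among heme proteins, was left out after the values were seen. The rule for named genes took all members, in each list up to 4 called genes with the smallest p, and the 3 profiles nearest to a member changed at least 2-fold. Clpx, Abcb10, Bach2, Dlst, Gata1, Tbxas1, Cyba, Cat, Cybb and the cell type markers were named outside it. Alternatives were a pseudocount of 16 or 64, 2 other detection filters, 4 other scalings, the deposited matrix, no intensity trend, array weights, a replicate block and leaving out each array.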

Additional observations from a re-analysis of the deposited data

How the results depend on the processing

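Of 216 alternative values of the 12 tested probe sets, 203 kept their direction and side of the threshold, 7 came to pass it, 1 no longer passed it and 5 changed sign. With hybridization control scaling the dimmer Urod probe set stood at -0.089 and the Cpox probe sets at -0.18 and -0.024, and after quantile normalization those of Cpox stood at -0.015 and -0.078. The call that was lost was that of the dimmer Urod probe set with median centring (0.11). Calls gained were 4 at the brightest Fech probe set, given above, and 3 at Cpox (0.25 without mock replicate 1, 0.46 without Nup98::Nsd1 replicate 1 and 0.34 without an intensity trend). Heme probe sets called higher numbered 3 to 5 and those called lower 5 to 6 over all settings. With hybridization control scaling 4573 tested probe sets were higher and 9586 lower, and 11 rather than 19 genes of the lists around the pathway were higher; the cause was not tested. Counting every tested probe set of these lists gave 53 lower in place of 34 by gene, as more are counted. Same-numbered arrays of both groups did not deviate together (correlations of -0.017, -0.011 and 0.021 for numbers 1, 2 and 3). These values gave no sign of pairing, but they cannot show that same-numbered samples shared no culture or handling step. With the replicate block 4 heme probe sets were higher and 5 lower, 8628 of all tested probe sets were higher and 5629 lower, and no call of a heme probe set changed. Detection limits what can be said of the 7 untested probe sets.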
